A study of Mus musculus with 127 samples.

Results

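Multipotent progenitors (MPP), the haematopoietic cells just downstream of the stem cells, were sorted from mouse bone marrow and cultured with or without 2 bacterial ligands. This account covers 27 of the 127 deposited libraries, those of MPP at 0, 2, 4 and 8 h, which summed over technical repeats to 24 libraries, 1 for each of 6 mice and 4 times. Young mice 1, 2 and 3 and old mouse 2 gave the stimulated cultures, with 100 ng/ml lipopolysaccharide (LPS) and 1 ug/ml Pam3csk4 in the medium. Young mouse 4 and old mouse 4 gave the unstimulated cultures, labelled with treatment None and kept in the same medium without ligand. The 0 h library of every mouse was read as unexposed, also where its label names the ligands. No strain, genotype, sex or age beyond young and old is given in the sources used here, and there was 1 old mouse in each course. The question was which changes from a mouse's own 0 h library were larger or smaller with ligand than in culture alone. Polyadenylated RNA was amplified by SMART-seq2, which copies whole transcripts from few cells.

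LPS is bound by Cd14 and signals through Tlr4 with its partner Ly96, while Pam3csk4 is a synthetic lipopeptide bound by Tlr2 together with Tlr1. Both receptors use Myd88 and the Irak kinases to activate the I-kappa-B kinases, which mark I-kappa-B proteins for breakdown and so release NF-kB subunits into the nucleus. Among the genes that NF-kB switches on are its own inhibitors (Nfkbia, Tnfaip3), chemokines, cytokines and adhesion molecules, and blood stem and progenitor cells are known to carry these receptors themselves.

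Stimulated libraries held 2941633 to 11636725 counts (median 4659811, 16 libraries) and unstimulated ones 1882081 to 2680425 (median 2355356, 8 libraries). At 8 h 10116 to 13356 genes had a count in stimulated libraries, against 9459 and 10253 in unstimulated ones. Progenitor surface markers were present at 0 h in both courses, at unequal levels. Kit stood at 424 to 771 CPM, counts scaled to library size, in the 4 mice later stimulated, against 137 and 177 CPM in the 2 others. Flt3 stood at 283 to 823 CPM, against 65.6 and 139 CPM. Ly6a went the other way, at 62 to 82.1 CPM in the mice later stimulated, against 116 and 170 CPM in the 2 others. Cd48 overlapped, at 81.3 to 115 CPM, against 99.1 and 107 CPM. Slamf1, low in MPP, was at 0.535 to 2.44 CPM in the mice later stimulated and at 0 in the 2 others. Late neutrophil granule genes were also present at 0 h and differed between mice. They made up 5.28%, 2.37%, 0.0123% and 1.95% of counts in young mice 1, 2 and 3 and old mouse 2. In young mouse 4 and old mouse 4 they made up 7.81% and 2%. Of 12875 genes tested at 0 h, 1 (0.00777%) differed between these mice (edgeR, adjusted p = 0.0244) and 710 had an unadjusted p under 0.05. That gene was Procr, a stem cell surface receptor, with 14.1 to 21.8 CPM in the mice later stimulated and no count in the 2 others. The column names carry a date of their own for each stimulated mouse and none for the unstimulated ones. What the date marks is not stated there, and date, mouse and course cannot be told apart.

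The number of genes whose change differed between the courses grew with time. At 2 h 12 of 12875 genes (0.0932%) changed more upward with ligand than without and 1 (0.00777%) more downward, at an edgeR adjusted p under 0.05. The 13 genes were 0.101% of those tested. At 4 h 165 genes were called (1.28%), 129 higher (1%) and 36 lower (0.28%). At 8 h 470 were called (3.65%), 366 higher (2.84%) and 104 lower (0.808%). The mean of the 3 differences passed for 214 genes (1.66%), 174 upward (1.35%) and 40 downward (0.311%). Unadjusted p-values under 0.05 were found for 725, 1417 and 2109 genes at 2, 4 and 8 h. The median difference over all genes was -0.01, 0.08 and 0.23 on the log2 scale. Among genes with a mean of at least 50 CPM it was -0.084, -0.064 and -0.028. Among the genes called, the changes of the 4 stimulated mice did not overlap those of the 2 unstimulated mice for 12 of 12 higher and 1 of 1 lower at 2 h. At 4 h this held for 127 of 129 and 36 of 36, and at 8 h for 363 of 366 and 103 of 104. Over all genes this was so for 11.1% upward and 11.2% downward at 2 h, 12.9% and 11.4% at 4 h, and 16.8% and 11.8% at 8 h. The genes were called on these same changes, so the lack of overlap among them adds no support to the calls.

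The counts moved with the mice. At 2 h 13 genes were called in all, against 32 without young mouse 1, 7 without young mouse 2 and 5 without old mouse 2. At 4 h the 165 calls became 63 without young mouse 2, 103 without young mouse 3, 57 without old mouse 2 and 304 without young mouse 4. At 8 h the 470 calls became 787, 220, 286, 219 and 812 without young mice 1, 2 and 3, old mouse 2 and old mouse 4. Fitted without each mouse as a replicate block, 4, 50 and 214 genes were called. Of 164 calls of single genes named here or in the lists below, 77 were lost in that fit and 71 were kept without each mouse in turn. Among 3745 genes with a mean of at least 50 CPM, 289 were higher and 283 lower at 8 h, a more even split than over all genes.

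Most of the 12 genes higher at 2 h had risen with ligand, while at 8 h more of the higher genes had fallen without it. In the same fit, changes from own 0 h were tested within each course. With ligand 7.13%, 7.64% and 7.22% of all genes rose at 2, 4 and 8 h and 1.51%, 3.4% and 3.74% fell. Without ligand 1.23%, 3.58% and 4.7% rose and 0.14%, 2.31% and 6.1% fell. The stimulated course had 4 mice and deeper libraries, the unstimulated course 2 mice. Numbers that passed within each course, here and below, therefore cannot be compared as sizes of response. Of the 12 genes higher at 2 h, 11 rose with ligand and 1 fell without. Of the 129 higher at 4 h, 77 rose with ligand and 57 fell without. Of the 366 higher at 8 h, 158 rose with ligand and 245 fell without, 58 of them called in both courses and 191 only in the unstimulated one. Of the 104 lower at 8 h, 26 fell with ligand and 76 rose without. Of the 366, 81 had no count in the 2 unstimulated libraries at 8 h, the shallowest of the set. Among the 238 of them with a mean of at least 50 CPM, 6 had none. In bulk RNA, fewer cells of a type and less RNA per cell cannot be told apart, and CPM give only shares of a library.

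**Figure D1:**
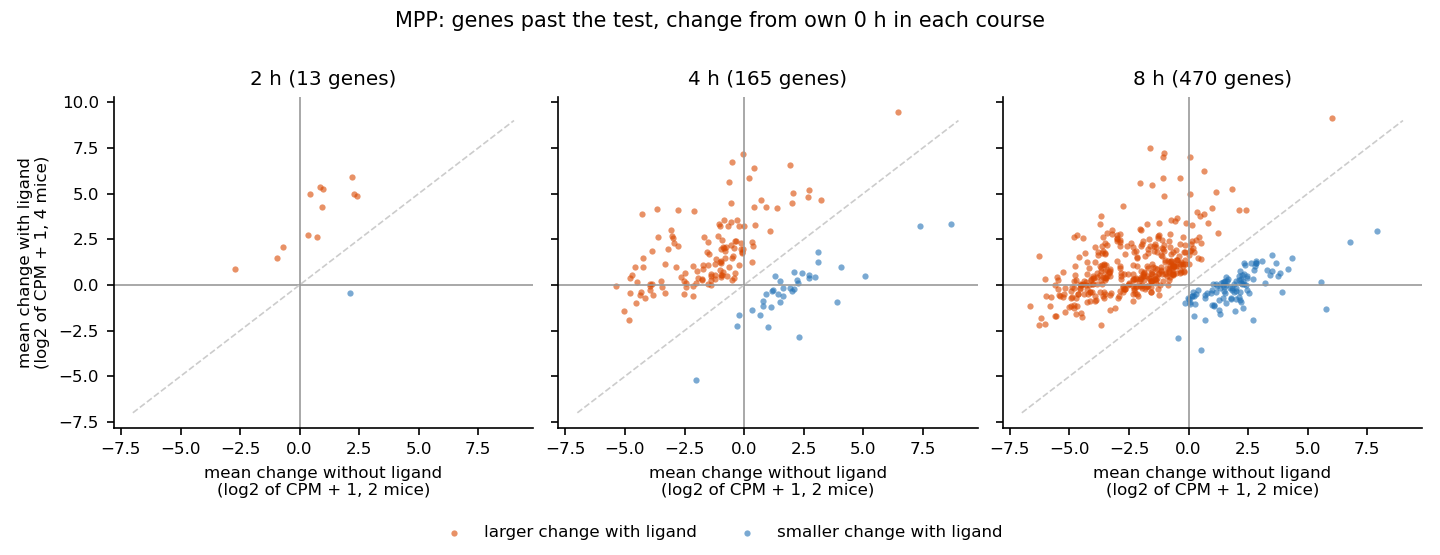
Each point is a gene whose change differed between the courses at 2, 4 or 8 h (13, 165 and 470 genes). The vertical axis is the mean change from own 0 h in the 4 stimulated mice and the horizontal axis that in the 2 unstimulated mice, both as log2 of CPM + 1, with the dashed line marking equal change; at 8 h most orange points (higher with ligand, 366 genes) lie left of 0, below the 0 h level without ligand.

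Inhibitors that NF-kB induces against itself gave 3 of the 12 genes higher at 2 h. Of 15 feedback regulators, 3, 4 and 6 were higher with ligand at 2, 4 and 8 h and none lower, with a median difference of 2.25, 2.18 and 1.66 on the log2 scale. Levels are listed here and below in the order young mice 1, 2 and 3 and old mouse 2 with ligand, then young mouse 4 and old mouse 4 without. Nfkbia, the main I-kappa-B protein, was at 1300, 1860, 1460 and 1660 CPM with ligand at 2 h, against 226 and 199 CPM without. The 0 h levels were 135, 72.9, 57.9 and 76.4 CPM in the mice later stimulated and 176 and 69.1 CPM in the 2 others. Every stimulated library exceeded both unstimulated ones, and the difference of the changes was log2 3.29 ± 0.43 (SE, as throughout; edgeR adjusted p = 0.00134). It was 3.35 ± 0.43 (edgeR adjusted p = 0.000515) at 4 h and 3.18 ± 0.43 (edgeR adjusted p = 0.000432) at 8 h. Nfkbiz, an atypical I-kappa-B that works in the nucleus, stood at 750, 933, 780 and 755 CPM with ligand at 2 h, against 41.6 and 50.8 CPM without, a difference of 3.66 ± 0.46 (edgeR adjusted p = 0.000881).

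Tnfaip3 (A20), which edits ubiquitin chains on signalling proteins, was at 380, 573, 538 and 415 CPM with ligand at 2 h, against 74.9 and 93.3 CPM without, a difference of 2.51 ± 0.46 (edgeR adjusted p = 0.0351). It rose in both courses and more with ligand. Its binding partner Tnip1 passed next, with 265, 210, 257 and 238 CPM with ligand at 4 h, against 13.2 and 6 CPM without and a difference of 4.58 ± 0.55 (edgeR adjusted p = 0.000269). Both unstimulated mice stood below their 0 h levels of Tnip1, 18 and 21.3 CPM, and all 4 stimulated mice above theirs. Nfkbie, a further I-kappa-B, was called at 32, 143, 125 and 210 CPM with ligand at 8 h, against 3.54 and 2.9 CPM without (5.61 ± 1.09, edgeR adjusted p = 0.00604). The 8 h calls of Nfkbia, Nfkbiz, Nfkbie and Tnip1 and the 4 h calls of Nfkbia and Tnip1 were kept without each mouse in turn. Those of Nfkbia and Nfkbiz at 2 h and Tnfaip3 at 4 h were lost without young mouse 4, that of Nfkbiz at 4 h without old mouse 2, and those of Tnfaip3 at 2 and 8 h without any of several mice (young 2, young 4 or old 2 at both times).

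The NF-kB subunit and kinase list held 12 genes. None passed at 2 h, and 3 passed upward at both 4 and 8 h. Nfkb2, the p100 precursor of the non-canonical pathway, stood at 546, 417, 282 and 362 CPM with ligand at 4 h, against 56.7 and 93.2 CPM without, a difference of 2.91 ± 0.57 (edgeR adjusted p = 0.0133). Nfkb1, the p105 precursor, was at 65.4, 253, 224 and 185 CPM with ligand at 4 h, against 24.9 and 39.8 CPM without (2.43 ± 0.53, edgeR adjusted p = 0.0294). Ikbke, a kinase of the I-kappa-B kinase family, was at 293, 722, 595 and 497 CPM with ligand at 4 h, against 4.4 and 0 CPM without, with a difference of 9.05 ± 1.21 (edgeR adjusted p = 0.000663). Of the list Relb did not pass, at 266, 326, 340 and 308 CPM with ligand at 8 h, against 111 and 16.3 CPM without. The call of Ikbke was kept without each mouse in turn, that of Nfkb2 at 4 h was lost without young mouse 2 or old mouse 2, and that of Nfkb1 without any of 4 mice (young 2, young 3, old 2 or old 4).

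None of the 16 receptors, adaptors and Irak kinases that read LPS and Pam3csk4 passed at any time, by edgeR at an adjusted p under 0.05. With 0.101%, 1.28% and 3.65% of all genes called, so short a list would hold few or no calls. At 4 h 13 of the 16 differences were positive, with a median of 1.08. Over all genes 6791 of 12875 were positive, with a median of 0.08. Changes of 6 of the 16 did not overlap upward, beside 12.9% of all genes. Within courses 7 rose with ligand at 4 h and 1 without. Cd14, the LPS co-receptor, was at 597, 504, 55.7 and 249 CPM with ligand at 2 h, against 584 and 480 CPM without. Later it was at 644, 445, 65.8 and 352 CPM with ligand at 8 h, against 43.7 and 145 CPM without. There were at most 4.93 CPM in any mouse at 0 h. Cd14 rose in both courses at 2 h, and young mouse 3 had the lowest stimulated level at both times. Tlr2 was at 164, 150, 76.8 and 109 CPM with ligand at 4 h, against 44 and 22.4 CPM without. Tlr4 was at 2.13, 29.2, 3.36 and 2.1 CPM with ligand at 4 h, against 11.2 and 92.1 CPM without. The Tlr4 levels of the courses overlapped.

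Of 15 survival and TNF receptor adaptor genes downstream of NF-kB, 1, 4 and 4 were higher at 2, 4 and 8 h. Birc3, an inhibitor of apoptosis, was at 166, 239, 257 and 164 CPM with ligand at 8 h, against 19.5 and 11.6 CPM without, a difference of 4.18 ± 0.60 (edgeR adjusted p = 0.000663) that was kept without each mouse in turn. Gadd45b, a stress-induced regulator of MAP kinases, was at 265, 340, 323 and 268 CPM with ligand at 2 h, against 24.5 and 44.6 CPM without (4.15 ± 0.66, edgeR adjusted p = 0.0106). Its stimulated and unstimulated levels did not overlap, yet the call was lost without young mouse 2, 3 or 4 or old mouse 2. Traf1, an adaptor of the TNF receptors, stood at 233, 410, 299 and 447 CPM with ligand at 8 h, against 4.72 and 22.7 CPM without (5.61 ± 1.06, edgeR adjusted p = 0.00519; lost without young mouse 4). Bcl2a1b, an anti-apoptotic gene of the Bcl2 family, was at 262, 651, 675 and 291 CPM with ligand at 4 h, against 1.47 and 8.72 CPM without (6.85 ± 1.57, edgeR adjusted p = 0.0352). Its call was lost without young mouse 2 or 4 or old mouse 2 or 4, and reads of the near-identical Bcl2a1 copies cannot be separated with certainty.

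Promoter sequences are shown for genes of this group and of the cytokine and interferon groups below, because NF-kB, the factor that both ligands switch on, reads a known motif. Windows of 300 bases (250 before to 50 after a RefSeq start, build GRCm38.p6) were found for 8 of the 12 genes higher at 2 h, 95 of the 129 at 4 h and 282 of the 366 at 8 h. The NF-kB motif was taken as GGG and TTCC with any 3 bases between them, on either strand. It was present in 4 of 9 windows (44.4%) of the genes higher at 2 h, 21 of 124 (16.9%) at 4 h and 40 of 368 (10.9%) at 8 h, against 6.28% of 12189 windows of all genes tested and 5.56% of all 32851 windows. In genes lower with ligand the NF-kB motif was in 5 of 34 windows (14.7%) at 4 h, near the share of the higher genes, and in 5 of 101 (4.95%) at 8 h. The AP-1 motif TGANTCA was in 11.3% of windows of higher genes at 4 h and 8.7% at 8 h, and in 14.7% and 10.9% of those of lower genes, against 5.44% of all genes tested and 7.81% of all windows. The interferon element, taken as GAAA and GAAA with any 2 bases between, was in 6.45% and 4.89% of windows of higher genes at 4 and 8 h and in 2.94% and 1.98% of those of lower genes, against 3.2% of all genes tested and 3.44% of all windows. Both strands were searched, a gene can have several windows, no share was tested, and a match describes letters and not binding. The 3 genes higher at 2 h with a match were Nfkbia, Tnfaip3 and Gbp2. In the stretches below, 5′ to 3′ on the gene's strand, capitals mark the NF-kB matches.
Nfkbia, chr12:55492647-55492696, minus strand: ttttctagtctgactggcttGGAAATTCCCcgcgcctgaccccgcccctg
Tnfaip3, chr10:19015361-19015442, minus strand: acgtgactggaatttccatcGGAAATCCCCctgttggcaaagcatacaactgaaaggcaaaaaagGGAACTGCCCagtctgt
Gbp2, chr3:142620650-142620699, plus strand: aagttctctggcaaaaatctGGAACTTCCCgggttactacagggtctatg
Tnip1, chr11:54962967-54963018, minus strand: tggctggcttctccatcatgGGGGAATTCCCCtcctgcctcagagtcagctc
Nfkbie, chr17:45555574-45555623, plus strand: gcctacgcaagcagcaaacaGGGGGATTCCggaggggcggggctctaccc
Nfkb2, chr19:46304679-46304755, plus strand: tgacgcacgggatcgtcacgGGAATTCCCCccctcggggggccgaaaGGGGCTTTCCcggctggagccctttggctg
Ltb, chr17:35194400-35194449, plus strand: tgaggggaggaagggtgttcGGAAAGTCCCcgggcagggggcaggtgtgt
Cxcl10, chr5:92348964-92349068, minus strand: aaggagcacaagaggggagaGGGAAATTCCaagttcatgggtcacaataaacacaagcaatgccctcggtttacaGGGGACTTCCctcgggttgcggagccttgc
The stretches of Tnfaip3, Tnip1, Nfkb2 and Cxcl10 each hold 2 matches, which overlap in Tnip1. None of these matches overlaps one of the other motifs searched.

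Of 7 CXC chemokines tested Cxcl16 was higher at 2 h, and Cxcl16 and Cxcl10 at 4 and 8 h. Cxcl16, a membrane-bound chemokine, was near absent at 0 h, with at most 3.52 CPM in any mouse. It reached 25.6, 44.5, 102 and 38.5 CPM with ligand at 2 h, against 9.2 and 0.413 CPM without, a difference of 7.13 ± 1.09 (edgeR adjusted p = 0.00941). At 8 h it was at 74.4, 191, 229 and 143 CPM with ligand and without a count in either unstimulated library. Against a floor of 3 counts over that group, 0.878 CPM, the mean level was at least 181-fold higher with ligand (edgeR adjusted p = 6.25e-05). Cxcl10, which attracts activated T cells, was at 111, 163, 105 and 267 CPM with ligand at 4 h, against 2.44 and 0 CPM without (7.61 ± 1.20, edgeR adjusted p = 0.00307) and at least 157-fold above the floor at 8 h. All 4 stimulated mice lay above both unstimulated ones. The calls of Cxcl16 and Cxcl10 were lost without young mouse 4, and that of Cxcl16 at 2 h also without young mouse 3 or old mouse 2.

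Of 10 CC chemokines tested, 1 was higher at 4 h and 2 at 8 h. Ccl5, a late chemokine for T cells and monocytes, was at 500, 924, 490 and 882 CPM with ligand at 4 h, against 17.1 and 91.6 CPM without, a difference of 5.51 ± 0.75 (edgeR adjusted p = 0.000811). Later it stood at 1030, 2290, 1020 and 1810 CPM with ligand at 8 h, against 27.2 and 49.4 CPM without (7.01 ± 0.77, edgeR adjusted p = 8.17e-05). Ccl5 was higher at 8 than at 4 h in each stimulated mouse, and both calls passed under each of the 19 and 20 alternatives. Ccl9, a myeloid chemokine, was at 275, 950, 502 and 716 CPM with ligand at 8 h, against 1.77 and 45.3 CPM without (4.57 ± 0.98, edgeR adjusted p = 0.0119; lost without young mouse 2 or 4 or old mouse 2). Ccl3 and Ccl4, the inflammatory MIP-1 chemokines, did not pass. Ccl3 was at 1190, 1760, 711 and 1130 CPM with ligand at 8 h, against 246 and 181 CPM without. At the start it was at 3.99, 4.46, 10.7 and 8.64 CPM in the mice later stimulated and at 7.05 and 3.36 CPM in the 2 others. Ccl4 was at 539, 962, 380 and 781 CPM with ligand at 8 h, against 157 and 56.9 CPM without, after 8.8, 6.78, 12.5 and 8.12 CPM and 0.352 and 2.24 CPM at 0 h. Both chemokines were higher than at 0 h in each of the 6 mice, and their stimulated levels at 8 h lay above the unstimulated ones.

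**Figure D2:**
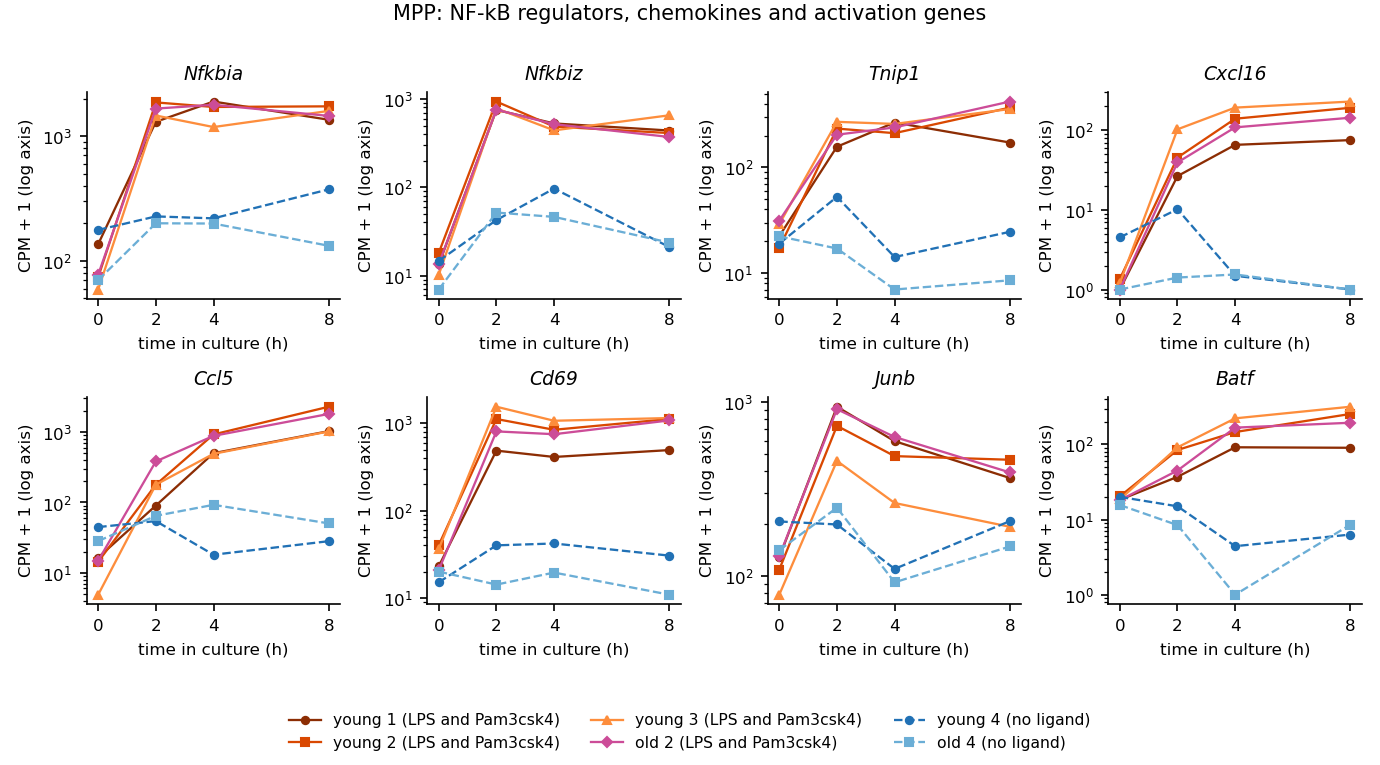
Levels (CPM + 1, log axis) over time in culture for 8 genes that passed at 1 or more times, 1 line per mouse: solid lines with ligand (young 1, 2, 3, old 2), dashed lines without (young 4, old 4). For Nfkbia, Nfkbiz, Cd69, Ccl5 and Batf all 4 solid lines lie above both dashed lines from 2 h on.

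Cytokines and their receptors numbered 29 tested, of which none passed at 2 h. At 4 h 4 passed upward, and at 8 h 6. Ebi3, a subunit of dimeric interleukins of the Il12 family, was at 392, 555, 558 and 344 CPM with ligand at 4 h, against 71.8 and 44.2 CPM without (3.22 ± 0.47, edgeR adjusted p = 0.00156). Ltb, lymphotoxin beta, was at 292, 229, 364 and 301 CPM with ligand at 4 h, against 31.8 and 7.63 CPM without (3.42 ± 0.53, edgeR adjusted p = 0.00275). Both calls were kept without each mouse in turn. Il1b was at 1090, 728, 177 and 479 CPM with ligand at 4 h, against 76.7 and 0.545 CPM without (5.30 ± 0.91, edgeR adjusted p = 0.00472). The levels of the 2 unstimulated mice lay far apart, and the call was lost without young mouse 4. Tnf was at 463, 304, 60.1 and 214 CPM with ligand at 8 h, against 13 and 29.6 CPM without (3.55 ± 0.80, edgeR adjusted p = 0.0165; lost without young mouse 2 or 4). Il6 did not pass at any time and stood at 22.5, 38.4, 7.78 and 47.1 CPM with ligand at 8 h, against 1.18 and 11.6 CPM without, where the groups overlapped. Csf1r, the receptor that drives monocytes, had 145, 60.3, 28.3 and 73.9 CPM at 0 h in the mice later stimulated and 257 and 216 CPM in the 2 others. At 8 h it was at 414, 211, 96.2 and 168 CPM with ligand, against 37.2 and 72.6 CPM without. It was higher than at 0 h with ligand and lower without, a difference of 3.66 ± 0.54 (edgeR adjusted p = 0.000723) that was kept without each mouse in turn.

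Of 17 activation and costimulatory surface molecules, 1, 5 and 7 were higher at 2, 4 and 8 h. Cd69, an early activation marker that holds cells in tissue, was at 486, 1120, 1550 and 808 CPM with ligand at 2 h, against 39 and 13.2 CPM without. At 0 h it was at 22, 39.2, 35.3 and 19.8 CPM in the mice later stimulated and at 14.1 and 19 CPM in the 2 others. Its difference was 4.59 ± 0.47 (edgeR adjusted p = 0.00017) at 2 h and 4.99 ± 0.48 (edgeR adjusted p = 2.29e-05) at 8 h. Cd69 rose with ligand and did not pass without it at 2 h, and its 3 calls were kept without each mouse in turn. Icam1, the adhesion molecule bound by leukocyte integrins, was at 389, 500, 518 and 469 CPM with ligand at 8 h, against 1.77 and 26.1 CPM without (3.75 ± 0.60, edgeR adjusted p = 0.00156; also kept). Cd40, a costimulatory receptor, had 36.2, 64.6, 31.3 and 39.9 CPM with ligand at 4 h and no count without, at least 55.6-fold above the floor of 0.773 CPM (edgeR adjusted p = 0.00307). At 0 h Cd40 was at 2.14, 2.5, 0 and 2.14 CPM in the mice later stimulated and at 9.87 and 13.8 CPM in the 2 others. Marcksl1, a membrane-cytoskeleton linker, was at 458, 369, 197 and 386 CPM with ligand at 4 h, against 41 and 19.6 CPM without (2.84 ± 0.47, edgeR adjusted p = 0.0038). Cd83 did not pass, at 145, 311, 432 and 124 CPM with ligand at 8 h, against 0 and 61 CPM without.

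Among 30 immediate early genes tested, 1 was higher at 2 h, the same number at 4 h, and at 8 h 1 was higher and 1 lower. The higher one was Junb, an AP-1 subunit, at 939, 729, 458 and 909 CPM with ligand at 2 h, against 197 and 246 CPM without (2.36 ± 0.29, edgeR adjusted p = 0.000881). Later it was at 595, 488, 262 and 629 CPM with ligand at 4 h, against 109 and 91.1 CPM without (2.88 ± 0.29, edgeR adjusted p = 5.6e-05). The lower one was Dusp6, a phosphatase that switches off ERK, at 16.3, 3.76, 0.472 and 12.6 CPM with ligand at 8 h, against 60.8 and 116 CPM without (-4.42 ± 1.13, edgeR adjusted p = 0.0331), a call lost without young mouse 2 or 4 or old mouse 2 or 4. Fos, Egr1 and Atf3 did not pass; Atf3 was at 112, 30.6, 8.81 and 18.4 CPM with ligand at 4 h, against 230 and 206 CPM without. Of 14 SOCS, Pim and STAT genes, 1 was higher at 4 h and 2 at 8 h. Socs3, the feedback inhibitor of cytokine receptors, had 39.6, 67.1, 54.8 and 57 CPM with ligand at 4 h and no count without, at least 70.6-fold above the floor, and 94.8, 83.6, 86.3 and 94.9 CPM with ligand at 8 h, against 0 and 2.32 CPM without (6.05 ± 1.02, edgeR adjusted p = 0.00258). The transcription factors Klf5, Ikzf1 and Stat3 did not pass at any time, where 3 genes would hold few or no calls at the shares over all genes. At each of 2, 4 and 8 h, 2 of these 3 rose from own 0 h with ligand and 1 without.

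Myeloid transcription factors gave 2 calls at 4 h and 1 at 8 h, of 12 tested. Batf, an AP-1 family factor of activated lymphoid and myeloid cells, was at 90.5, 145, 221 and 166 CPM with ligand at 4 h, against 3.42 and 0 CPM without (6.34 ± 0.76, edgeR adjusted p = 0.000269). Later it was at 89.1, 253, 316 and 193 CPM with ligand at 8 h, against 5.31 and 7.55 CPM without (4.74 ± 0.68, edgeR adjusted p = 0.000623). Its level was above that at 0 h in all 4 stimulated mice and below it in both unstimulated mice, and both calls were kept without each mouse in turn. Sfpi1, which encodes PU.1, the master factor of myeloid fate, was at 956, 725, 541 and 633 CPM with ligand at 4 h, against 477 and 247 CPM without (2.03 ± 0.34, edgeR adjusted p = 0.00399), a call also kept. None of 18 stem and progenitor transcription factors passed at any time (edgeR, adjusted p under 0.05), with median differences, of changing sign under other settings, of -0.37, -0.57 and -0.06. At the shares called over all genes (0.101%, 1.28% and 3.65%), a list of that size would hold few or no calls.

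At 8 h genes of the secretory pathway were higher with ligand. Of 18 endoplasmic reticulum chaperones and unfolded protein response genes, 10 were higher with ligand and none lower, with 18 of 18 differences positive and a median of 1.84, beside 0.23 over all genes. For all 12875 genes, 2.84% were higher at 8 h and 7298 differences were positive. With ligand 14 rose from own 0 h, and without ligand 5 fell and 2 rose. Hspa5, the main chaperone of the reticulum (BiP), was at 1290, 2270, 2470 and 1690 CPM with ligand at 8 h, against 401 and 745 CPM without. The 0 h levels were 556, 596, 530 and 463 CPM in the mice later stimulated and 512 and 720 CPM in the 2 others. The difference was 1.98 ± 0.29 (edgeR adjusted p = 0.000723) and passed under each of the 20 alternatives. Calr, a lectin chaperone, was at 375, 846, 935 and 672 CPM with ligand at 8 h, against 82.1 and 121 CPM without (2.90 ± 0.38, edgeR adjusted p = 0.000334; the same). Pdia6, a disulfide isomerase, was at 429, 781, 944 and 479 CPM with ligand at 8 h, against 95.7 and 196 CPM without (2.40 ± 0.34, edgeR adjusted p = 0.000511). Levels above the 0 h level with ligand and below it without were found in every mouse for both Calr and Pdia6, and the 8 h levels of the courses did not overlap.

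Genes of the machinery of translocation, glycosylation and vesicle transport had calls in 1 direction at 8 h. Of 38 such genes, a list chosen after values were seen, 23 were higher at 8 h and none lower, against 0 at 2 h and 1 at 4 h. The summed level of the 38 at 8 h, given like all list sums from the lowest to the highest mouse, was 9820 to 14500 CPM with ligand, against 4990 and 7540 CPM without, after 5920 to 6690 CPM at 0 h in the mice later stimulated and 7760 and 8920 CPM in the 2 others. Rpn1, a subunit of the oligosaccharide transferase, was at 391, 716, 596 and 385 CPM with ligand at 8 h, against 66.7 and 137 CPM without, a difference of 2.82 ± 0.33 (edgeR adjusted p = 0.000114). Ssr1, of the translocon-associated complex, was at 507, 754, 647 and 641 CPM with ligand at 8 h, against 185 and 310 CPM without (1.85 ± 0.33, edgeR adjusted p = 0.00386; lost without young mouse 4). Surf4, a cargo receptor, was at 706, 698, 761 and 607 CPM with ligand at 8 h, against 332 and 263 CPM without (1.56 ± 0.27, edgeR adjusted p = 0.00316). With ligand 26 of the 38 rose from own 0 h and without ligand 8 fell.

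Among Ly6 and Ifitm membrane proteins and interferon-stimulated genes, more fell without ligand at 8 h than rose with it. Of 8 Ly6 and Ifitm genes the test was passed upward by 3 at 4 h and 4 at 8 h. With ligand none rose at 8 h, and without ligand 6 fell. Ifitm2, a membrane protein that restricts virus entry, was at 245, 369, 274 and 370 CPM with ligand at 8 h, against 10 and 17.4 CPM without. At the start it was at 232, 253, 130 and 288 CPM in the mice later stimulated and at 141 and 137 CPM in the 2 others. The difference was 3.86 ± 0.34 (edgeR adjusted p = 1.14e-05) and passed under each of the 20 alternatives. Ly6e was at 658, 1800, 2510 and 1660 CPM with ligand at 8 h, against 45.5 and 166 CPM without (4.29 ± 0.57, edgeR adjusted p = 0.000338; kept without each mouse). Ly6a, the Sca-1 antigen by which such progenitors are commonly sorted, was at 61, 137, 398 and 114 CPM with ligand at 8 h, against 29.5 and 61.6 CPM without (2.71 ± 0.63, edgeR adjusted p = 0.02; lost without young mouse 2 or 4 or old mouse 4).

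Of 38 interferon-stimulated genes, 1, 4 and 8 were higher at 2, 4 and 8 h, and 38 of 38 differences were positive at 8 h. Over all genes 0.0932%, 1% and 2.84% were higher at these times, and 7298 of 12875 differences were positive at 8 h. Their summed level at 8 h was 1490 to 4350 CPM with ligand, against 382 and 429 CPM without. At 0 h it was 1500 to 1970 CPM in the mice later stimulated and 1350 and 1730 CPM in the 2 others. Within courses 3 of 38 rose with ligand and 12 fell without. Gbp2, an interferon-induced GTPase, was at 36.7, 102, 101 and 93.8 CPM with ligand at 2 h, against 3.94 and 1.65 CPM without (3.93 ± 0.68, edgeR adjusted p = 0.031), a call lost without each mouse but young mouse 1. At 8 h it had 30.5, 184, 202 and 202 CPM with ligand and no count without, at least 177-fold above the floor (edgeR adjusted p = 0.000114; kept without each mouse). Irf7, the factor that amplifies type I interferon, had 60.2, 52.7, 115 and 80.9 CPM with ligand at 8 h and none without, at least 88-fold above the floor (edgeR adjusted p = 0.00337). Both genes had been present at 0 h in the unstimulated mice, Gbp2 at 21.1 and 25 CPM and Irf7 at 72.6 and 28 CPM. Of 18 MHC and immunoproteasome genes 5 were higher at 8 h, among them Psme2, a proteasome activator subunit, at 186, 246, 249 and 183 CPM with ligand at 8 h, against 33.1 and 40.7 CPM without (2.43 ± 0.38, edgeR adjusted p = 0.00108). Tapbp, which loads peptides onto MHC class I, was at 448, 455, 581 and 486 CPM with ligand at 8 h, against 177 and 224 CPM without (1.75 ± 0.32, edgeR adjusted p = 0.00386; lost without young mouse 4).

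**Figure D3:**
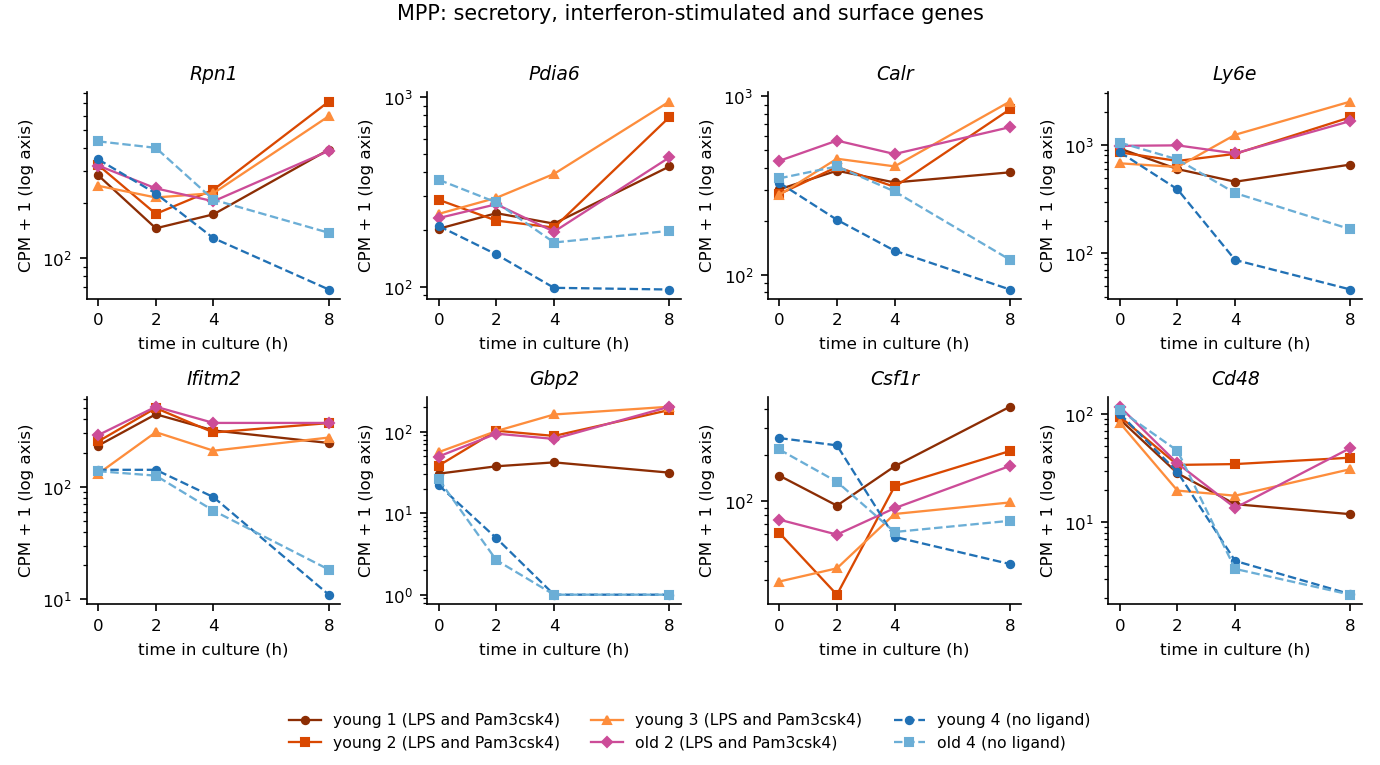
Levels (CPM + 1, log axis) over time in culture for 8 genes higher with ligand at 8 h, 1 line per mouse: solid with ligand (young 1, 2, 3, old 2), dashed without (young 4, old 4). For Rpn1, Pdia6 and Calr the solid lines lie above the dashed ones at 8 h, while Ifitm2, Ly6e, Gbp2 and Cd48 are lower at 8 than at 0 h in both dashed lines, Gbp2 with no count at 4 and 8 h.

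Of 8 genes of superoxide handling and NADP supply (Sod2, Nadk and NADPH oxidase subunits), 2 passed upward at 4 h and 5 at 8 h. All 8 rose from own 0 h with ligand at 8 h and none without. Nadk, the kinase that makes NADP, was at 1220, 1020, 1020 and 847 CPM with ligand at 8 h, against 174 and 185 CPM without. At 0 h it was at 313, 213, 126 and 161 CPM in the mice later stimulated and at 487 and 207 CPM in the 2 others. Its difference was 3.10 ± 0.40 (edgeR adjusted p = 0.000295) and passed under each of the 20 alternatives. Ncf1, the organiser subunit of the phagocyte oxidase, was at 1770, 1410, 1200 and 1160 CPM with ligand at 4 h, against 1510 and 382 CPM without, where the levels of the courses overlapped, as young mouse 4 had started at 1460 CPM. Its changes did not overlap, and the difference was 2.36 ± 0.38 (edgeR adjusted p = 0.00313). Rac2, the oxidase's GTPase, was at 1960, 1390, 990 and 1230 CPM with ligand at 8 h, against 909 and 600 CPM without (1.61 ± 0.33, edgeR adjusted p = 0.00867; lost without young mouse 4). Sod2, mitochondrial superoxide dismutase, did not pass, at 998, 676, 112 and 470 CPM with ligand at 8 h, against 102 and 128 CPM without, with young mouse 3 in the range of the unstimulated mice.

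Of 22 genes of cholesterol and fatty acid synthesis 4 passed upward at 4 h and 3 at 8 h. Within courses at 4 h, 12 rose with ligand and 2 without. Hmgcs1, which makes the precursor of mevalonate, was at 346, 462, 709 and 475 CPM with ligand at 4 h, against 65.5 and 30 CPM without (3.52 ± 0.56, edgeR adjusted p = 0.00307; lost without old mouse 4). Insig1, the sterol sensor of the reticulum, was at 289, 428, 434 and 407 CPM with ligand at 4 h, against 42 and 66.5 CPM without (2.03 ± 0.44, edgeR adjusted p = 0.027), a call lost without young mouse 2, 3 or 4 or old mouse 2. Hmgcs1 was later at 256, 204, 142 and 198 CPM with ligand at 8 h, against 103 and 101 CPM without, lower than at 4 h in all 4 stimulated mice. Of 26 actin cytoskeleton genes, also chosen after values were seen, 12 were higher at 8 h, among them Actb at 13900, 10900, 5610 and 8280 CPM with ligand at 8 h, against 9480 and 6240 CPM without (1.24 ± 0.16, edgeR adjusted p = 0.00028). Cfl1, which severs filaments, was at 1090, 1040, 636 and 929 CPM with ligand at 8 h, against 413 and 393 CPM without (1.07 ± 0.18, edgeR adjusted p = 0.00193). Actb had stood at 11000, 7150, 4080 and 6420 CPM at 0 h in the mice later stimulated and 17800 and 10100 CPM in the 2 others, so the 8 h levels of the courses overlapped where the changes did not.

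Heat shock chaperones differed in the other direction. Of 18 chaperones none was higher, and 0, 9 and 6 were lower with ligand at 2, 4 and 8 h, with medians of -0.91, -2.07 and -1.34. At 2 h 12 of 18 rose with ligand and 12 without, and at 4 h 3 with ligand and 12 without. Their summed level was 15500 to 20100 CPM with ligand at 2 h, against 23400 and 33200 CPM without, and 6600 to 8000 CPM at 8 h, against 24900 and 28200 CPM. Hspa8, the constitutive Hsc70 chaperone, had 3090, 3590, 3760 and 3140 CPM at 0 h in the mice later stimulated and 2880 and 3630 CPM in the 2 others. It was at 7820, 7930, 9370 and 7880 CPM with ligand at 2 h, against 11400 and 14800 CPM without. Later it was at 3390, 4360, 3310 and 3680 CPM with ligand at 4 h, against 11900 and 19800 CPM without. Hspa8 rose in both courses at 2 h, and at 4 h its change from 0 h passed without ligand and did not pass with it, a difference of -2.14 ± 0.20 (edgeR adjusted p = 4.15e-05). At 8 h it was -2.19 ± 0.20 (edgeR adjusted p = 1.4e-05); both calls passed under every alternative run.

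Hsp90ab1, the constitutive Hsp90, was at 1450, 1410, 1890 and 1420 CPM with ligand at 8 h, against 6760 and 5370 CPM without (-1.99 ± 0.22, edgeR adjusted p = 8.17e-05; past under all 20 alternatives). Hsph1, a co-chaperone of Hsp70, was at 126, 132, 71.1 and 94.8 CPM with ligand at 4 h, against 1670 and 2470 CPM without (-4.48 ± 0.76, edgeR adjusted p = 0.00456). Hspd1 and Hspe1 together form the mitochondrial chaperonin. Hspd1 was at 85, 198, 228 and 264 CPM with ligand at 4 h, against 588 and 887 CPM without (-2.41 ± 0.35, edgeR adjusted p = 0.0014). Hspe1 was at 45.4, 68.1, 49.3 and 51.3 CPM with ligand at 4 h, against 129 and 234 CPM without (-2.01 ± 0.31, edgeR adjusted p = 0.00275). The 4 h calls of these genes were kept without each mouse in turn. The inducible Hspa1a, whose reads are hard to separate from those of Hspa1b, did not pass, at 305, 13.8, 31.4 and 73.6 CPM with ligand at 8 h, against 1590 and 920 CPM without. Hspd1 and Hspe1 are transcribed away from each other, and a stretch that both promoter windows hold is shown on the strand of each gene. Capitals mark the heat shock motif, taken on either strand as TTC, GAA and TTC with any 2 bases between neighbours. This motif was in 4 of 34 windows (11.8%) of genes lower at 4 h, those of Hspd1, Hspe1 and Hsph1, whose windows share their matches so that 2 places in the genome account for all 4. It was in 2 of 101 windows (1.98%) of genes lower at 8 h and 5 of 21 of the chaperone list, against 0.517% of windows of all genes tested and 0.603% of all windows.
Hspd1, chr1:55088039-55088096, minus strand: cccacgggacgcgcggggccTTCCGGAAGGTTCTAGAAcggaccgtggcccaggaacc
Hspe1, chr1:55088039-55088096, plus strand: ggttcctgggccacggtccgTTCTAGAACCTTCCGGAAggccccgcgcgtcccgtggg
Hsph1, chr5:149636268-149636320, minus strand: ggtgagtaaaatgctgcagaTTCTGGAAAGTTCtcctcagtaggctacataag
The Hspd1 and Hspe1 stretches are the same bases on opposite strands, with 2 overlapping matches that also overlap an NF-kB match.

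Genes of the integrated stress response and of Nrf2, which answer amino acid shortage and oxidation, had calls downward. Of 20 integrated stress genes none passed at 2 or 4 h and 3 were lower at 8 h. Atf4, its central factor, was at 242, 283, 195 and 230 CPM with ligand at 8 h, against 941 and 719 CPM without (-1.14 ± 0.24, edgeR adjusted p = 0.0113). Its target Ddit3 (CHOP) was at 60.5, 30.1, 20.7 and 9.86 CPM with ligand at 8 h, against 318 and 145 CPM without (-2.94 ± 0.63, edgeR adjusted p = 0.0119). Slc3a2, a subunit of amino acid transporters, was at 774, 472, 113 and 423 CPM with ligand at 8 h, against 3510 and 2770 CPM without (-2.80 ± 0.62, edgeR adjusted p = 0.0153). For all 3 genes both unstimulated mice lay above all 4 stimulated ones, and each call was lost without young mouse 4 and without old mouse 2. Of 15 Nrf2 target and autophagy genes 2 passed downward at 4 h and 3 at 8 h, though all 15 rose from own 0 h in both courses at 4 h. Young mouse 3 stood apart. Its median change of the list at 4 h was 0.61, where the other stimulated mice had 3.29 to 3.5, against 3.77 and 3.79 without ligand. At 8 h young mouse 1, at 3.80, lay between the unstimulated mice, at 3.49 and 4.27. Vmp1, an autophagy membrane protein, was at 428, 319, 182 and 353 CPM with ligand at 4 h, against 559 and 699 CPM without (-1.30 ± 0.29, edgeR adjusted p = 0.0294; lost without young mouse 2 or 3 or old mouse 2 or 4). Srxn1, a sulfiredoxin, was at 114, 77.5, 5.87 and 87.4 CPM with ligand at 4 h, against 320 and 519 CPM without (edgeR adjusted p = 0.0154); it had no count at 0 h in the unstimulated mice, so no fold is given. The call was lost without young mouse 2 or 4 or either old mouse.

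The 1 gene lower at 2 h was Neat1, a nuclear noncoding RNA that builds paraspeckles. It was at 137, 23.9, 39.2 and 61.1 CPM with ligand at 2 h, against 903 and 513 CPM without. The 0 h levels were 169, 49.6, 33.1 and 93.6 CPM in the mice later stimulated and 223 and 107 CPM in the 2 others. Neat1 rose without ligand, while it was lower than at 0 h in 3 of the 4 stimulated mice. The difference was -2.52 ± 0.40 (edgeR adjusted p = 0.00941) at 2 h and -1.72 ± 0.39 (edgeR adjusted p = 0.0174) at 8 h, and the 2 h call was lost without young mouse 4 or either old mouse, the 8 h call without young mouse 4 or old mouse 4. Of 9 nuclear and snoRNA host RNAs, chosen after values were seen, 5 were lower at 8 h, among them Malat1 at 2150, 992, 1090 and 1730 CPM with ligand at 8 h, against 1720 and 2520 CPM without (-1.40 ± 0.24, edgeR adjusted p = 0.00301). Snhg1 was at 5.94, 22.6, 17.4 and 10.9 CPM with ligand at 8 h, against 62 and 83.1 CPM without (-3.37 ± 0.66, edgeR adjusted p = 0.00608). Malat1 had 1990, 969, 882 and 1290 CPM at 0 h in the mice later stimulated and 581 and 793 CPM in the 2 others, so the courses differ in change and overlap in level. Slc16a6, a monocarboxylate transporter, was among the largest negative differences, at 15.4, 7.99, 4.82 and 10.8 CPM with ligand at 4 h, against 295 and 232 CPM without (-4.88 ± 0.67, edgeR adjusted p = 0.000889). Later it was at 25.6, 23.6, 4.48 and 10.9 CPM with ligand at 8 h, against 314 and 214 CPM without (-4.29 ± 0.67, edgeR adjusted p = 0.00115). It rose without ligand at both times and did not pass with ligand, and both calls were kept without each mouse in turn.

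**Figure D4:**
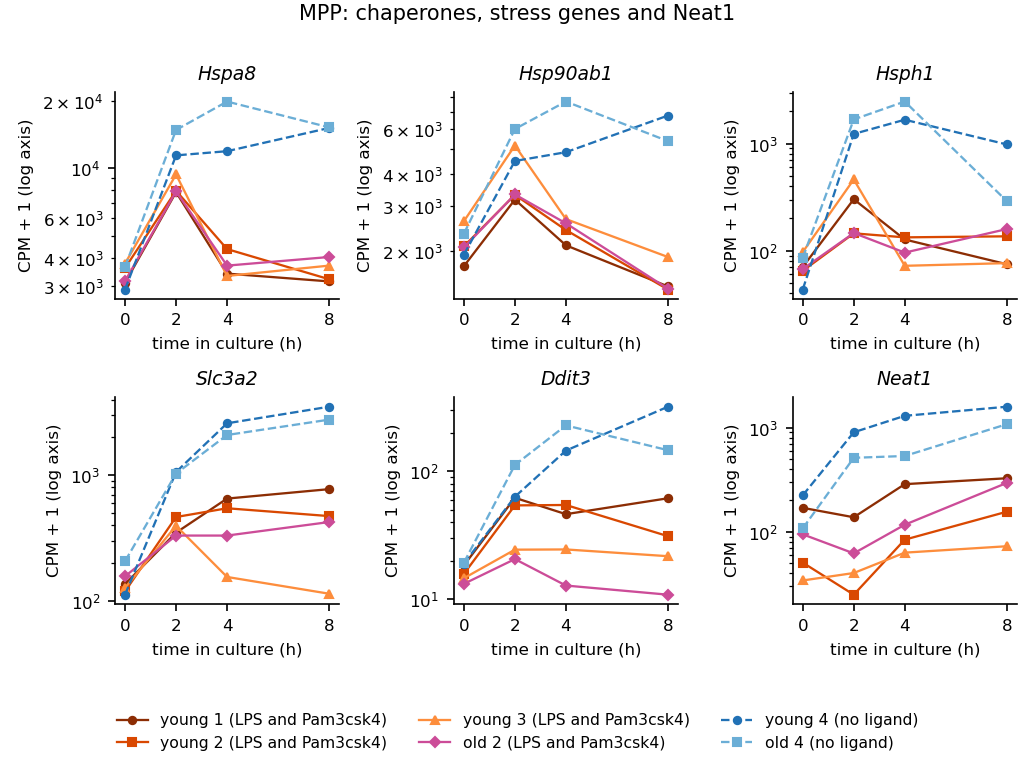
Levels (CPM + 1, log axis) over time in culture for 6 genes lower with ligand than without at 1 or more times, 1 line per mouse: solid with ligand (young 1, 2, 3, old 2), dashed without (young 4, old 4). Hspa8 and Hsp90ab1 are above their 0 h level in all 6 mice at 2 h, and at 8 h both dashed lines lie above all solid ones; Slc3a2 and Neat1 stay higher in both dashed lines from 2 h on.

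Ribosomal protein genes differed in change more than in level at 8 h. Of 82 tested, a list added after values were seen, 65 fell from own 0 h with ligand at 8 h and 1 without, and 11 were lower in the test of the difference, with a median of -0.57. The median change per mouse was -0.70 to -0.44 with ligand, against -0.12 and 0.10 without. Their summed level at 8 h overlapped, at 44900 to 77700 CPM with ligand, against 65800 and 93900 CPM without. Rpl32 was at 395, 952, 550 and 652 CPM with ligand at 8 h, against 728 and 1030 CPM without (-1.10 ± 0.20, edgeR adjusted p = 0.00396; kept without each mouse). At the start it was at 810, 1830, 1090 and 1530 CPM in the mice later stimulated and at 760 and 908 CPM in the 2 others. Reads of ribosomal genes are shared with many processed copies in the genome, so single members are uncertain. None of 25 ribosome biogenesis factors passed at any time, where few or no calls would be held at the shares over all genes. At 8 h 4 of the 25 fell from own 0 h with ligand and 11 without.

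Of 31 S, G2 and M genes 14 fell with ligand and 21 without at 8 h, and 4 were higher in the test of the difference. Top2a, the topoisomerase of dividing cells, was at 320, 244, 421 and 327 CPM with ligand at 8 h, against 123 and 69.1 CPM without (1.87 ± 0.37, edgeR adjusted p = 0.00653; lost without old mouse 4). At 0 h it was at 388, 428, 429 and 479 CPM in the mice later stimulated and at 415 and 486 CPM in the 2 others. Cdc20, an activator of the anaphase-promoting complex, was at 222, 93.6, 130 and 120 CPM with ligand at 8 h, against 28.9 and 38.9 CPM without (2.56 ± 0.49, edgeR adjusted p = 0.00543; lost without young mouse 4). Myc, the growth regulator, was below its 0 h level in all 6 mice at 2 h. It was at 58.4, 94.1, 156 and 125 CPM with ligand at 8 h, against 13.6 and 17.4 CPM without. The 0 h levels were 354, 528, 562 and 500 CPM in the mice later stimulated and 191 and 232 CPM in the 2 others. The difference of 1.56 ± 0.33 (edgeR adjusted p = 0.0119) was lost without young mouse 3 or 4 or old mouse 2. Of 13 D cyclin, Myc family and G1 kinase genes 3 were higher at 8 h (Myc, Ccnd3 and the Myc antagonist Mxd1). The call of Ccnd3 was lost without young mouse 4, and that of Mxd1 without any mouse but old mouse 4. Of 19 p53 target and CDK inhibitor genes Ccng1 was higher, at 242, 302, 164 and 229 CPM with ligand at 4 h, against 73.3 and 71.4 CPM without (1.89 ± 0.38, edgeR adjusted p = 0.017; lost without young mouse 2 or either old mouse). Cdkn1a did not pass, at 247, 335, 91.3 and 348 CPM with ligand at 4 h, against 131 and 186 CPM without. Of 21 glycolysis and hypoxia genes and 20 respiratory chain subunits, 1 each was higher at 8 h, Hk1 and Sdhb. With 2.84% of all genes higher at 8 h, 1 call in a list this short says little of the list. The call of Hk1 was lost without young mouse 2 or 4 or old mouse 2. That of Sdhb was lost without young mouse 2, 3 or 4 or old mouse 4.

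Of 12 progenitor surface genes 1 was lower at 4 h, and at 8 h 2 were higher and 1 lower. Of 14 lymphoid genes 1 was higher at 8 h. With 2.84% of all genes higher and 0.808% lower at 8 h, single calls in lists this short say little of the lists. Cd48, present on MPP and absent from stem cells, was at 10.9, 38.4, 29.9 and 47.4 CPM with ligand at 8 h, against 1.18 and 1.16 CPM without (4.76 ± 0.79, edgeR adjusted p = 0.0019). At the start it was at 87.8, 93.1, 81.3 and 115 CPM in the mice later stimulated and at 99.1 and 107 CPM in the 2 others. It was below its 0 h level in all 6 mice, furthest without ligand, and the call was kept without each mouse in turn. Dntt, the lymphoid terminal transferase, was at 79.6, 250, 447 and 193 CPM with ligand at 8 h, against 0.591 and 0 CPM without (edgeR adjusted p = 0.0193; lost without young mouse 2 or old mouse 2), and at 0 h it was at 341, 613, 678 and 329 CPM in the mice later stimulated and at 34.2 and 41.5 CPM in the 2 others. Procr was at 221, 213, 91.3 and 208 CPM with ligand at 4 h, against 102 and 274 CPM without; its smaller change with ligand (edgeR adjusted p = 0.00399) rests on the absence of counts at 0 h in both unstimulated mice. Likewise Esam, an adhesion molecule of stem cells, and Cd28 were among the 6 largest negative differences at 8 h and had at most 0.374 CPM at 0 h in the unstimulated mice. Esam was at 13.4, 0.251, 4.01 and 25.9 CPM with ligand at 8 h, against 46.7 and 112 CPM without. Cd28 was at 4.91, 2.01, 0.236 and 0.435 CPM with ligand at 8 h, against 75.6 and 27.3 CPM without. The call of Esam was lost without young mouse 3 or 4 or either old mouse, and that of Cd28 without any mouse but young mouse 1.

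Among the remaining genes with the largest positive differences, Slc6a12, a betaine and GABA transporter, was at 68.6, 42.7, 10.1 and 62.1 CPM with ligand at 4 h, against 6.84 and 0 CPM without (6.73 ± 1.30, edgeR adjusted p = 0.0138; lost without young mouse 2 or 4 or old mouse 2). At 8 h it had 88.4, 96.6, 33.7 and 142 CPM with ligand and no count without, at least 103-fold above the floor. Fam20c, a secretory pathway kinase, had 110, 78, 22.2 and 103 CPM with ligand at 8 h and no count without, at least 89.1-fold above the floor. Ralgds, an exchange factor for Ral GTPases, had 53.7, 97.3, 119 and 70 CPM at 4 h and no count without, at least 110-fold above the floor. Arl5c, an ARF-like GTPase, had 27.1, 87.6, 61.8 and 68.6 CPM at 8 h and none without, but 29.3 and 20.9 CPM at 0 h in the unstimulated mice. Among the largest negative ones, Arl11, a further ARF-like GTPase, was at 0.709, 0, 0 and 0 CPM with ligand at 4 h, against 26.9 and 4.36 CPM without, below its 0 h level in all 6 mice. That call was lost without any mouse but young mouse 1.

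Markers of other blood cells moved with some of these results. The 11 late neutrophil granule genes tested summed at 8 h to 245 to 102000 CPM with ligand, against 25600 and 51700 CPM without, and young mouse 3 was the low one at every time. Its granule sums were 101 to 245 CPM, where every other mouse had at least 16300 CPM at each time. Of the list 4 were higher at 8 h (S100a8, Ltf, Lcn2 and Mmp9), and all 4 calls were lost without young mouse 4, that of S100a8 also without any other young mouse and that of Mmp9 also without young mouse 2. The 14 monocyte and macrophage markers summed to 890 to 13700 CPM at 8 h with ligand, against 4230 and 5220 CPM without, after 328 to 8390 CPM at 0 h in the mice later stimulated and 6830 and 15200 CPM in the 2 others. Of the 14 markers 3 were higher at 8 h (Csf1r, Lyz1 and Lyz2) and 6 fell without ligand. The monocyte sum was lower at 8 than at 0 h in both unstimulated mice, and the granule sum was lower in young mouse 4 and higher in old mouse 4. Among stimulated mice, young mouse 3 was also lowest in the levels given above for Cd14, Il1b, Tnf, Sod2 and Slc3a2. It was highest in those for Cd69 and Batf. The part of these cells in the oxidase, Ly6, MHC and Csf1r results, or in any other result here, was not tested. Ly6g, a granulocyte marker, was not analysed here. Emr1, the macrophage antigen F4/80 and 1 of these 14 markers, did not pass at any time. It was at 606, 205, 30.9 and 117 CPM with ligand at 8 h, against 0 and 27.9 CPM without. At 0 h it was at 44, 12.7, 5.34 and 5.56 CPM in the mice later stimulated and at 38.4 and 55.6 CPM in the 2 others. Of 7 primary granule, 12 T and NK cell and 10 megakaryocyte markers none passed at any time. Lists this short would hold few or no calls at the shares over all genes. The primary granule sum at 0 h was 2010 to 7800 CPM in the mice later stimulated, against 14800 and 14900 CPM in the 2 others. At 8 h it was 1180 to 3210 CPM with ligand, against 1750 and 4380 CPM without. Of the 7 genes 3 had fallen with ligand by then, and without ligand 4 had fallen and 1 had risen. Of B cell, erythroid and stromal markers 1 each passed at 8 h (Cd79b and Car2 higher, Col1a1 lower), beside 2.84% higher and 0.808% lower of all genes. Col1a1 was at 7.49, 0.502, 0 and 0 CPM with ligand at 8 h, against 103 and 10.5 CPM without. At 0 h it was at 176, 13.4, 0 and 0.0855 CPM in the mice later stimulated and 8.81 and 1.87 CPM in the 2 others. Without the granule genes 13, 165 and 482 genes were called at 2, 4 and 8 h.

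**Figure D5:**
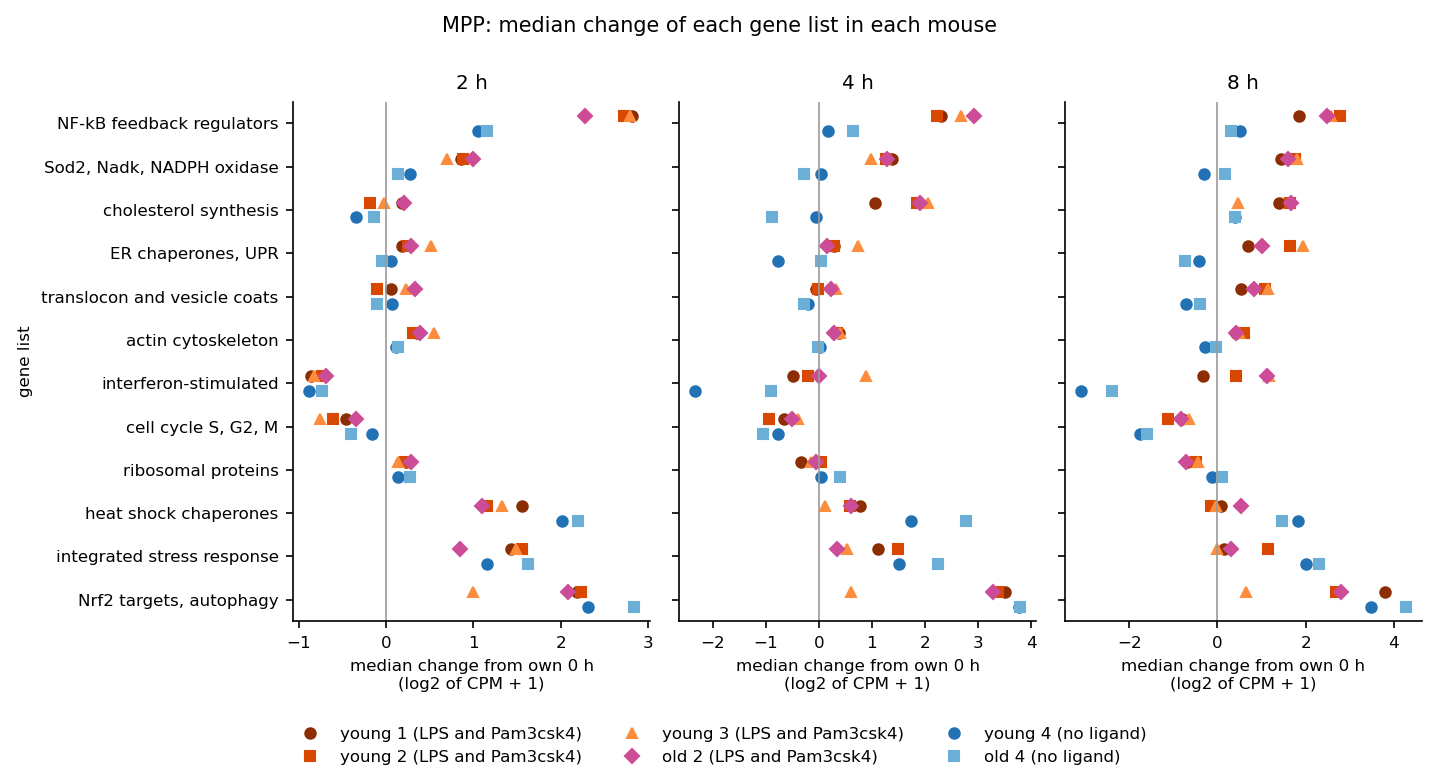
Median change from own 0 h (log2 of CPM + 1) of 12 gene lists in each mouse at 2, 4 and 8 h; orange and pink points are the 4 stimulated mice, blue points below them the 2 unstimulated mice. NF-kB feedback regulators are separate at each time, interferon-stimulated genes separate at 4 and 8 h, with the unstimulated mice at 8 h at -3.09 and -2.39, and heat shock chaperones lie further right without ligand at each time.

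Whether these differences were larger or smaller in MPP than in the stem cells of the same mice was tested in a joint fit of 72 libraries of MPP, short-term (ST) and long-term (LT) stem cells. Against ST the MPP difference itself differed for 0, 0 and 1 of 14401 genes at 2, 4 and 8 h (0%, 0% and 0.00694%), and against LT for 0 genes at each time (0%), by edgeR at an adjusted p under 0.05. Unadjusted p-values under 0.05 were found for 199, 224 and 373 genes against ST and 244, 329 and 444 against LT. The joint fit called 2, 13 and 42 genes for the MPP difference itself, against 13, 165 and 470 in the fit of MPP alone. At 8 h it called 47 genes higher and 29 lower with ligand in ST, and 15 higher and 5 lower in LT. With so few calls in this fit, the low counts cannot show that the cell types responded alike. For Nfkbia at 8 h the MPP difference minus the ST difference was log2 -0.41 ± 0.77 (SE), and minus the LT difference 1.32 ± 0.77. For Hspa8 these were -0.56 ± 0.49 and -0.79 ± 0.49, and for Ifitm2 0.41 ± 0.67 and 0.44 ± 0.67. The 1 gene past the threshold (edgeR adjusted p = 0.0137) was Ndufa9, a respiratory chain subunit named after its value was seen. Both unstimulated ST libraries had no count of it at 8 h, so no fold is given.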

How the data were processed

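The 24 MPP libraries of 6 mice at 0, 2, 4 and 8 h were taken from 1 deposited table of expected counts per gene symbol, not scaled to library size. RSEM and genome build mm9 are named in the submitters' processing notes, with no version of RSEM; an aligner is not given in the sources used here. Of the 127 columns 0 were left unmapped to a sample. Of the 6 mice, 3 had technical repeats at 0 h, which differed beyond counting noise (chi-square per degree of freedom 7.35 to 24.9) and were summed; expected counts were then rounded. Groups came from the labels. The 0 h label names the ligands for some mice and was read as unexposed.

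Genes passing edgeR's filterByExpr (12875) were scaled by TMM and fitted with edgeR 4.0.16 (R 4.3.3), quasi-likelihood F test, with mouse as a block, time, and course by time (12 residual degrees of freedom), Benjamini-Hochberg over all genes. Mouse numbers pair libraries because the labels give the same animal; mean correlations of deviations were 0.087 to 0.584 within a mouse. Levels are TMM-scaled CPM, and changes per mouse use a pseudocount of 1 CPM. Exact permutation of 4 against 2 mice has 15 arrangements, so a 2-sided p made by doubling cannot go below 0.133. A floor of 3 counts over the unstimulated group replaced fitted folds where that group had no count. Alternatives used DESeq2 1.42.0, limma 3.58.1, other filters and fits, and each mouse left out. With mouse as a block, p-values rest on how the changes over time scattered among these mice, pooled over times and courses. They also borrow spread from other genes (6.11 prior degrees of freedom). Libraries of the same mouse were treated as independent once its level was fitted. SMART-seq2 does not mark strand. On simulated 8 h data (12409 genes) edgeR recovered 0%, 6.25% and 45.6% of log2 changes of 1, 2 and 4. It made 35 calls of which 0 were false, and DESeq2 made 101 calls of which 33 were false. Counts were drawn from edgeR's own fit and dispersions under the same design, with these changes set only in genes of at least 5 CPM. That setting favours edgeR, so the numbers of false calls cannot be carried over to the real data.

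Genes are named where they were among the 6 largest calls per direction and time averaging 10 CPM or more and without overlap of mice, among the up to 4 smallest adjusted p-values called in each list, or on a list of known response genes. Members and lists were chosen with earlier results of these data known, and the secretory, actin, noncoding RNA and ribosomal protein lists after their values were seen. Ndufa9 and Emr1 lie outside the rule and were named after their values were seen. Some genes that it names enter only the counts, and 1 is not reported here.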

Additional observations from a re-analysis of the deposited data

Results flagged for a closer look

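In each of these results 1 of the 4 stimulated mice lay far from the other 3, by Dixon's criterion at 95%, in its change from own 0 h on the scale of log2(CPM + 1). Changes are listed for young mice 1, 2 and 3 and old mouse 2 with ligand, then for young mouse 4 and old mouse 4 without. Nfkbia at 2 h changed by 3.25, 4.65, 4.64 and 4.43 with ligand, against 0.37 and 1.52 without, and the value of young mouse 1, 3.25, was the low one. Traf1 at 4 h changed by 5.09, 7.22, 6.86 and 7, against 0.92 and 2.93, with young mouse 1 at 5.09. Birc3 at 8 h changed by 2.54, 2.48, 3.44 and 2.53, against -0.61 and -1.88, with young mouse 3 at 3.44. Cd48 at 8 h changed by -2.9, -1.26, -1.41 and -1.26, against -5.52 and -5.65, with young mouse 1 at -2.90. Ltb at 8 h changed by 1.03, 2.45, 2.58 and 2.37, against -3.18 and -0.8, with young mouse 1 at 1.03. Young mouse 1 was the mouse that stood apart in 4 of the 5. Chance alone flags about 1 in 20 groups, and 164 groups were examined, so the 5 flags are fewer than that rate would give. Whether young mouse 1 differs from the others was not tested.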

How the results depend on the processing

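The number of genes called depended on the test and the libraries more than on normalization. With DESeq2, 152, 554 and 1271 genes were called at 2, 4 and 8 h and 575 for the mean of the times, and with limma voom 34 at 2 h and 310 at 8 h. Without a filter on low counts 25 were called at 2 h. Levels at the same time, without the own 0 h, gave 59, 390, 965 and 2275. That fit has no term for the mouse, so libraries of the same mouse counted as independent, also in the mean of the times. The fit of 72 libraries gave 2, 13, 42 and 38, and the fit of 36 MPP libraries with all times 31, 291, 822 and 404. Young mice only gave 7 at 2 h, 52 at 4 h and 142 for the mean. A mean of at least 50 CPM, chosen after seeing the data, gave 35 at 2 h. Leaving out young mice 3 and 4 together, also chosen after seeing the data, gave 189 at 8 h. Leaving out each mouse in turn gave 5 to 32 genes at 2 h, 57 to 304 at 4 h, 219 to 812 at 8 h and 80 to 352 for the mean. The other alternatives (DESeq2 size factors, a mean of at least 5 CPM, technical replicate 1, granule genes left out) stayed within 1.5 times. Where 1 mouse was left alone in the unstimulated course, it was assumed to vary like the others.

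Without the replicate block 4, 50, 214 and 71 genes were called. Of 164 called results of single genes, 14 passed under every alternative run, and 77 were lost without the block. Without young mice 1, 2 and 3, old mouse 2, young mouse 4 and old mouse 4, 5, 52, 33, 54, 75 and 37 were lost. The sign turned for Ly6c2 at 4 h (-0.01) and Lyz1 at 8 h (-0.02), both for levels at the same time without the own 0 h. The cause was not tested. The shallower unstimulated libraries limit what can be said of genes with few counts there.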
